A study of Mus musculus with 93 samples.

Results

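35 genes of the lysosome were followed in mouse liver: 8 subunits of the V1 sector and 8 of the V0 sector and accessory proteins of the vacuolar proton pump (V-ATPase), 8 cathepsins, 8 other hydrolases and their helpers, the membrane glycoproteins Lamp1 and Lamp2, and the transcription factor Tfeb. They were taken by symbol from 53465 gene rows of a bulk RNA-seq count table, and all 35 were among the 19110 genes with enough reads to be tested. The list was selected on measured responses of these same livers to diet, so every comparison of diets below is a description and carries no p-value. The livers came from 93 male mice of 7 inbred strains (A/J, C57BL/6J, DBA/2J, 129S1/SvImJ, CAST/EiJ, PWK/PhJ and WSB/EiJ). All were kept at thermoneutrality (TN, 30°C) from 6 wk of age and were given Western diet (WD-TN, 40% of energy from fat) or control diet (CD-TN, 10% of energy from fat) for 17 wk from 7 wk of age, until 24 wk. Groups held 5 to 8 mice, no group was kept at another temperature, and no strain carried an engineered allele in the labels.

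Lysosomes are acidic organelles in which proteins, lipids, glycans and glycogen are broken down. The V-ATPase acidifies them: its V1 sector hydrolyses ATP in the cytosol and its V0 sector carries protons across the membrane. Cathepsins are the main lysosomal proteases, while hydrolases such as Hexa and Gaa act on glycolipids and glycogen. Hepatocytes and macrophages both use these enzymes, and a few (Ctss, Ctsk and the d2 subunit Atp6v0d2) are known mainly from macrophages, antigen-presenting cells or osteoclasts. Tfeb binds E-box letters known as CLEAR elements near the start of many lysosomal genes.

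Because the members are known for shared promoter letters, their RefSeq start windows (GRCm38.p6, 250 bases before the start to 50 bases from the start on) were searched on both strands. 28 members had a window, and Atp6v1b2, Atp6v1c1, Atp6v1g1, Atp6v1h, Atp6v0d2, Ctsb and Ctsh had none. The 6-letter core CACGTG, which reads the same on both strands, was in the windows of 11 of the 28 (39.3%), against 8.09% of 27025 genes with a window. The longer form TCACGTG (or CACGTGA, its other strand), which contains the core, was in 10 of 28 (35.7%) against 4.29%. TCACGTGA, which contains both, was in 6 of 28 (21.4%) against 1.12%, and the 10-letter palindrome GTCACGTGAC was in 0 of 28 against 0.37%. These are letter matches only, and binding was not measured. The stretches below are 60 bases upstream of the start that overlap no annotated exon. All members in which such a stretch was found around a core are shown. Lamp1 and Atp6v0b carry several cores, while Atp6v1a, Gaa and Glb1 carry a single core and moved in different directions on WD-TN. Capitals mark the core.
Lamp1 (chr8:13159096-13159155, strand +): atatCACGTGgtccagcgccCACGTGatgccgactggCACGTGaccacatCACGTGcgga
Atp6v0b (chr4:117887334-117887393, strand -): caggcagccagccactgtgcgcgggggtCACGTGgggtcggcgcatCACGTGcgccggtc
Atp6v1a (chr16:44139358-44139417, strand -): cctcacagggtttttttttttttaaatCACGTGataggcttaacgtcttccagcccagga
Gaa (chr11:119267796-119267855, strand +): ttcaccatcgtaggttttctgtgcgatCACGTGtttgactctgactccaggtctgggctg
Glb1 (chr9:114401003-114401062, strand +): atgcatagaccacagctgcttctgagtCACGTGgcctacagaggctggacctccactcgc
The Lamp1 stretch held 4 cores, the first starting 61 bases before the start and the last 15 bases before it. The Atp6v0b stretch held 2. Members with these letters included Gaa, which was called lower in 3 strains, and Lamp1, which was called higher in 5.

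**Figure D1:**
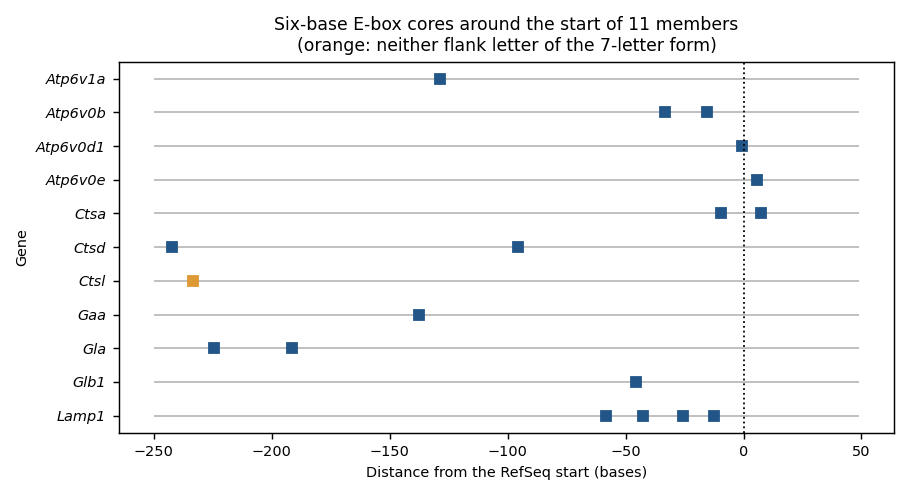
Position of each 6-base core in the start windows of the 11 members that carried it, in bases from the RefSeq start (dotted line at 0). Each square is a core, each grey line is the 300-base window, and Lamp1 has 4 squares within 61 bases of the start.

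Reads on genes per mouse ranged from 40020424 to 49894856, and values are given as read counts scaled to library size with TMM factors (CPM). Between 1.66% and 14.8% of reads per mouse did not map, with the highest share in CAST/EiJ. 1 library stood apart before any result: in C57BL/6J CD-TN replicate 2, 19.6% of genes lay over 2-fold from the median of the other 7 mice, and 18 members were above and 7 below all of those mice. Gpnmb, a marker of lipid-associated macrophages, was at 178 CPM there and at most 7.88 CPM in the other 7, and the C57BL/6J WD-TN mice were at 3.45 to 104 CPM. Ctsl was at 977 CPM in this mouse, at 369 to 530 CPM in the other 7 and at 345 to 592 CPM in the C57BL/6J WD-TN mice. The hepatocyte transcript Alb was at 88962 to 107503 CPM in all C57BL/6J CD-TN mice, this one included. On WD-TN it was at 55827 to 67902 CPM in C57BL/6J. Whether the diet label of replicate 2 is right was not tested, and the mouse was kept as labelled. C57BL/6J WD-TN replicate 3 (12.4% of genes over 2-fold away) and PWK/PhJ CD-TN replicate 5 (Kupffer cell marker Clec4f at 17.9 CPM against 77.7 to 126 CPM in the other 5) were also left out in turn. The diet calls that these 3 mice change in their own strain are given beside the member. Alb, the main hepatocyte transcript, was at 37566 CPM or more in every mouse.

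The response to WD-TN was limited to part of the list and went both ways. A call means a Benjamini-Hochberg adjusted p below 0.05 from limma over all 19110 genes, and its background is the share of all tested genes called in the same direction. In C57BL/6J 11 of 35 members were called higher and 1 lower, beside 14.3% and 11.9% of all genes. In 129S1/SvImJ 11 were called higher and 4 lower, beside 14.5% and 13.6%. In PWK/PhJ 9 were called higher and 9 lower, beside 15.1% and 14.5%. In DBA/2J 6 were called higher and 0 lower, beside 10.2% and 7.77%. In A/J 4 were called higher and 0 lower, beside 4.39% and 4.64%. In WSB/EiJ 5 were called higher and 1 lower, beside 4.97% and 3.97%. In CAST/EiJ 2 were called higher and 7 lower, beside 9.77% and 9.73%. The median log2 fold change over the 35 members ran from -0.03 in CAST/EiJ and -0.01 in PWK/PhJ to 0.08 in C57BL/6J and A/J, while the median over all genes was within 0.02 of 0 in every strain. Of the 35, 15 were called higher in at least 1 strain and lower in none, 10 lower and never higher, 2 both ways and 8 in no strain, beside 32.1%, 29.5%, 5.42% and 32.9% of all genes in the same 4 classes. Upper-quartile scaling changed the split to 11 higher and 0 lower in 129S1/SvImJ and to 4 higher and 6 lower in CAST/EiJ, and DESeq2 gave 11 and 2 in 129S1/SvImJ. Without C57BL/6J CD-TN replicate 2 the counts were 13 higher and 1 lower in C57BL/6J, while the lower calls became 3 in WSB/EiJ, 2 in DBA/2J and 1 in A/J. Without A/J CD-TN replicate 1 or 5, 1 and 2 members were called higher in A/J.

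**Figure D2:**
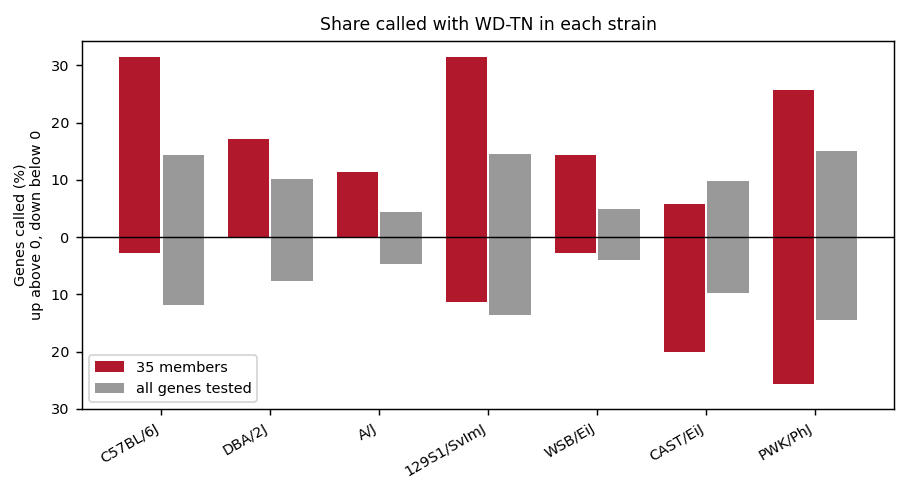
Percent of genes called higher (above 0) and lower (below 0) on WD-TN in each strain, for the 35 members (red) and for all 19110 genes tested (grey). The red bars reach 31.4% upward in C57BL/6J and 129S1/SvImJ, and in PWK/PhJ they are 25.7% in both directions.

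**Figure D3:**
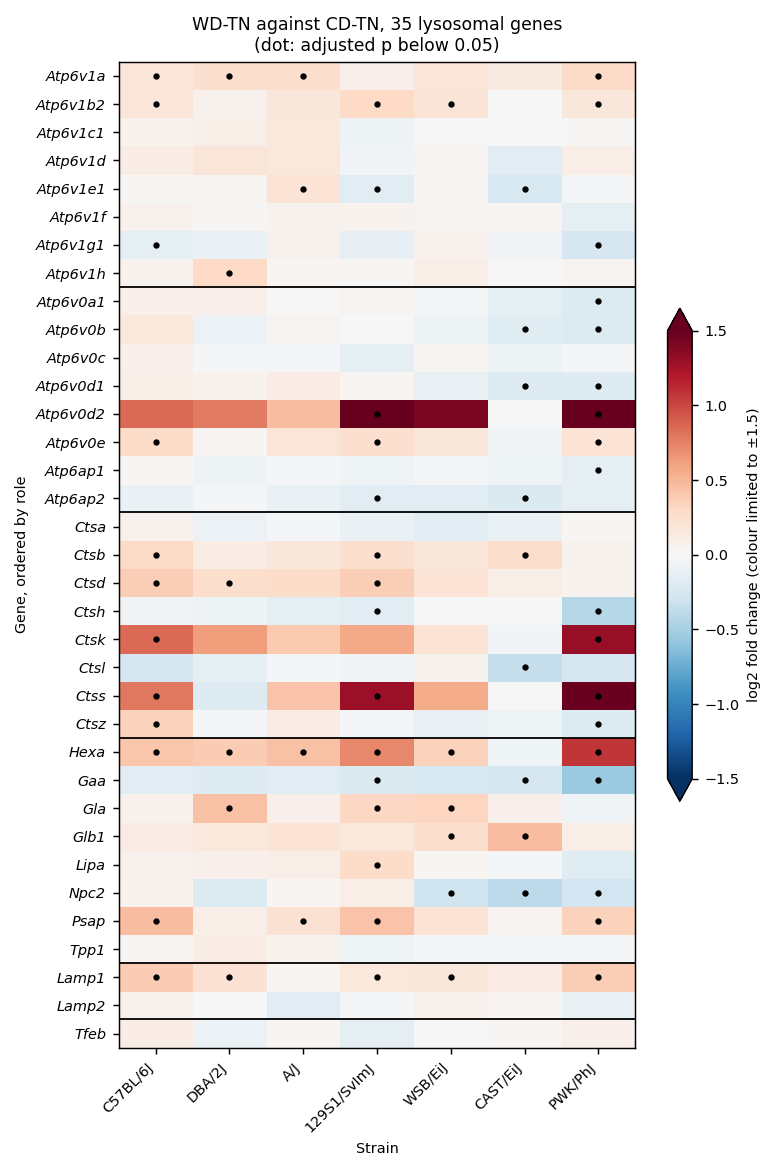
log2 fold change of WD-TN against CD-TN for the 35 members (rows, ordered by role, lines between roles) in the 7 strains (columns). Dots mark calls, and the values above 1 are those of Atp6v0d2 in PWK/PhJ (2.83), 129S1/SvImJ (1.87) and WSB/EiJ (1.42, not called), of Ctss in PWK/PhJ (1.48) and 129S1/SvImJ (1.29), and of Ctsk (1.31) and Hexa (1.07) in PWK/PhJ.

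In the V1 sector the changes were small. The catalytic A subunit Atp6v1a (ENSMUSG00000052459, chr16:44085402-44139705) was higher in 4 strains and its fold change was positive in all 7. Its lowest, median and highest values were 41.9, 44.6 and 45.6 CPM on CD-TN (n = 6) and 49.7, 52.3 and 55.0 CPM on WD-TN (n = 7) in DBA/2J, where every WD-TN mouse was above every CD-TN mouse. The log2 fold change there was 0.24 ± 0.06, with 0.18 ± 0.06 in C57BL/6J, 0.25 ± 0.07 in A/J and 0.28 ± 0.06 in PWK/PhJ, and the A/J call was lost without CD-TN replicate 1. Atp6v1b2 (ENSMUSG00000006273, chr8:69088646-69113711), the B subunit that pairs with A in the ATP-hydrolysing ring, was also higher in 4 strains. It was at 38.5, 40.7 and 43.8 CPM on CD-TN (n = 7) and 47.6, 49.5 and 53.7 CPM on WD-TN (n = 6) in 129S1/SvImJ, without overlap, a log2 fold change of 0.30 ± 0.06. The others were C57BL/6J (0.18 ± 0.06), PWK/PhJ (0.17 ± 0.06, or 0.16 ± 0.07 and not called without CD-TN replicate 5) and WSB/EiJ (0.20 ± 0.07), whose call was lost with upper-quartile scaling. In CAST/EiJ it was 0.01 ± 0.06 and not called. The peripheral stalk subunit Atp6v1g1 (ENSMUSG00000039105, chr4:63544772-63550750) went the other way. It was at 33.6, 38.5 and 43.9 CPM on CD-TN (n = 6) and 29.7, 31.8 and 34.8 CPM on WD-TN (n = 7) in PWK/PhJ, a log2 fold change of -0.25 ± 0.06, and 5 of the 7 WD-TN mice were below every CD-TN mouse. Its call in C57BL/6J (-0.15 ± 0.06) was lost under 11 of 16 alternatives, among them without CD-TN replicate 2, at -0.10 ± 0.06. The other stalk subunit Atp6v1e1 was called both ways, higher in A/J (0.20 ± 0.07) and lower in 129S1/SvImJ (-0.16 ± 0.06) and CAST/EiJ (-0.23 ± 0.06). With cohort as a term the A/J and 129S1/SvImJ calls were both lost and CAST/EiJ was left, and the A/J call was also lost without CD-TN replicate 1, 3 or 5. The H subunit Atp6v1h was called in DBA/2J alone (0.30 ± 0.05), and Atp6v1c1, Atp6v1d and Atp6v1f were called in no strain.

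In the V0 sector the d2 subunit Atp6v0d2 (ENSMUSG00000028238, chr4:19876841-19922605) had the widest range of all members, with log2 fold changes from 0.0029 in CAST/EiJ to 2.83 in PWK/PhJ. Its values were 0.275, 1.07 and 1.23 CPM on CD-TN (n = 6) and 3.57, 5.60 and 9.62 CPM on WD-TN (n = 7) in PWK/PhJ, without overlap, a log2 fold change of 2.83 ± 0.54. They were 0.631, 0.944 and 3.03 CPM on CD-TN (n = 7) and 3.27, 3.96 and 5.09 CPM on WD-TN (n = 6) in 129S1/SvImJ, again without overlap (1.87 ± 0.50). In C57BL/6J they were 0.766, 2.91 and 29.5 CPM on CD-TN and 3.41, 4.85 and 12.2 CPM on WD-TN. The 29.5 CPM came from the mouse that stood apart, and the log2 fold change, 0.85 ± 0.33 and not called with it, was 1.37 ± 0.31 and called without it. A/J had the highest CD-TN levels, with 8.99, 13.7, 5.91, 7.65 and 7.89 CPM in the 5 CD-TN mice of A/J, and 8.46, 10.4 and 18.4 CPM as the lowest, median and highest of its 6 WD-TN mice, and the groups overlapped (0.46 ± 0.31, not called). Levels were low in every strain, and a mouse had between 3 and 1756 reads on the gene.

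The ubiquitous d1 subunit Atp6v0d1 (ENSMUSG00000013160, chr8:105524465-105566047) was not among the genes called higher in any strain. It was at 73.8, 80.2 and 85.1 CPM on CD-TN (n = 6) and 65.4, 69.3 and 71.5 CPM on WD-TN (n = 7) in PWK/PhJ, with all WD-TN mice below all CD-TN mice and a log2 fold change of -0.20 ± 0.05. In CAST/EiJ it was -0.20 ± 0.05, and both were calls. Atp6v0e (ENSMUSG00000015575, chr17:26663231-26699647), a small membrane subunit, was higher in PWK/PhJ (0.21 ± 0.07), 129S1/SvImJ (0.25 ± 0.07) and C57BL/6J (0.28 ± 0.06). In 129S1/SvImJ its values were 23.4, 25.5 and 25.8 CPM on CD-TN and 27.7, 29.8 and 31.9 CPM on WD-TN, without overlap. The proteolipid subunit Atp6v0b was lower in CAST/EiJ (-0.19 ± 0.07) and PWK/PhJ (-0.21 ± 0.07), the latter not called without PWK/PhJ CD-TN replicate 5, and both lost with upper-quartile scaling. In C57BL/6J it was 0.15 ± 0.07 and not called, and 0.18 ± 0.07 and called without CD-TN replicate 2. The a1 subunit Atp6v0a1 (-0.21 ± 0.07) and the accessory protein Atp6ap1 (-0.14 ± 0.04) were lower in PWK/PhJ, and Atp6ap2, which is also the (pro)renin receptor, in 129S1/SvImJ (-0.16 ± 0.06) and CAST/EiJ (-0.22 ± 0.06). The call of Atp6ap1 was lost with upper-quartile scaling, and that of Atp6ap2 in 129S1/SvImJ under 8 of 16 alternatives, cohort as a term among them. The proteolipid Atp6v0c was called in no strain.

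Among the cathepsins the largest increases were those of Ctss and Ctsk. Cathepsin S (Ctss, ENSMUSG00000038642, chr3:95526786-95556403) trims the invariant chain in antigen-presenting cells. It was at 7.35, 24.7 and 39.6 CPM on CD-TN (n = 6) and 45.4, 63.2 and 76.7 CPM on WD-TN (n = 7) in PWK/PhJ, a log2 fold change of 1.48 ± 0.23, with every WD-TN mouse above every CD-TN mouse. The lowest value, 7.35 CPM, was that of CD-TN replicate 5, and without it the log2 fold change was 1.17 ± 0.22. Ctss was at 17.5, 23.6 and 27.3 CPM on CD-TN (n = 7) and 48.7, 55.1 and 69.6 CPM on WD-TN (n = 6) in 129S1/SvImJ, also without overlap (1.29 ± 0.23). In C57BL/6J the groups overlapped, with 35.4, 59.9 and 145 CPM on CD-TN and 76.4, 101 and 158 CPM on WD-TN, and the log2 fold change was 0.79 ± 0.21, or 0.99 ± 0.20 without CD-TN replicate 2. In DBA/2J (-0.19 ± 0.23) and CAST/EiJ the change was not called, and in CAST/EiJ the medians were 23.9 and 24.5 CPM. Nor was it called in A/J, at 30.1 to 52.8 CPM on CD-TN and 33.5 to 121.7 CPM on WD-TN. In WSB/EiJ, also not called, Ctss was at 16.8 to 24.5 CPM on CD-TN and 15.2 to 50.05 CPM on WD-TN. Cathepsin K (Ctsk, ENSMUSG00000028111, chr3:95499256-95509362), a collagen-degrading protease best known from osteoclasts, was at 1.52, 1.94 and 2.50 CPM on CD-TN (n = 6) and 2.75, 4.87 and 7.94 CPM on WD-TN (n = 7) in PWK/PhJ, a log2 fold change of 1.31 ± 0.24 without overlap. It was called higher in C57BL/6J (0.85 ± 0.31), where the value was 1.24 ± 0.30 without CD-TN replicate 2 and 0.58 ± 0.30, no longer called, without WD-TN replicate 3. With cohort as a term, edgeR or DESeq2 it was not called either.

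In the same strains the markers of blood cells moved with Ctss. All 8 leukocyte markers were called higher on WD-TN in PWK/PhJ, 129S1/SvImJ and C57BL/6J, with 3 in WSB/EiJ, 1 each in A/J and CAST/EiJ and 0 in DBA/2J, beside the shares of all genes given above (15.1%, 14.5% and 14.3% higher in the first 3). Their summed level was 22.9 to 79.3 CPM on CD-TN and 106 to 188 CPM on WD-TN in PWK/PhJ, 59.9 to 115 and 170.4 to 274 CPM in 129S1/SvImJ, and 127 to 452 and 236 to 532 CPM in C57BL/6J. It was 122 to 153 and 101 to 164 CPM in DBA/2J, 98.6 to 142 and 115 to 362 CPM in A/J, 61.7 to 89.9 and 67.3 to 210.5 CPM in WSB/EiJ and 56.1 to 85.0 and 66.5 to 143 CPM in CAST/EiJ. Of 7 markers of lipid-associated macrophages, 6 were called higher in PWK/PhJ, 5 each in C57BL/6J and 129S1/SvImJ, 3 in WSB/EiJ, 2 in A/J, 1 in CAST/EiJ and 0 in DBA/2J, while 2 were called lower in C57BL/6J, 1 each in DBA/2J, A/J, 129S1/SvImJ and PWK/PhJ. Their summed level was 163 to 277 CPM on CD-TN and 223 to 646 CPM on WD-TN in PWK/PhJ, 43.9 to 94.6 and 112 to 205 CPM in 129S1/SvImJ, 114 to 734 and 97.2 to 628 CPM in C57BL/6J and 63.4 to 112 and 40.7 to 57.9 CPM in DBA/2J. It was 54.8 to 84.7 and 58.5 to 101 CPM in A/J, 26.9 to 54.1 and 45.3 to 111 CPM in WSB/EiJ and 34.3 to 71.0 and 49.5 to 88.1 CPM in CAST/EiJ. Trem2, their defining receptor, was at 0 to 0.0834 CPM on CD-TN and 1.18 to 5.17 CPM on WD-TN in PWK/PhJ. In DBA/2J Gpnmb was at 0 in 2 CD-TN and 1 WD-TN mouse, but not all markers of the list were flat there. Mmp12 was at 0.310 to 0.718 CPM on CD-TN and 1.38 to 3.12 CPM on WD-TN in DBA/2J (2.20 ± 0.98, not called). Trem2 was at 0.110 to 0.369 and 0.346 to 0.662 CPM in that strain. Fabp5 of the same list went the other way and was called lower in 5 strains (-2.48 ± 0.34 in PWK/PhJ). Spp1, called higher in 4 strains, is in this list and in that of cholangiocyte markers, so the 2 lists are not separate. Of 8 Kupffer cell markers 5 were called higher in 129S1/SvImJ, 3 in PWK/PhJ, 2 in C57BL/6J, 1 in CAST/EiJ and 0 elsewhere. The part of these cells in the changes of Ctss, Ctsk and Atp6v0d2 was not tested, and in bulk liver more cells of a type and more RNA per cell cannot be told apart.

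**Figure D4:**
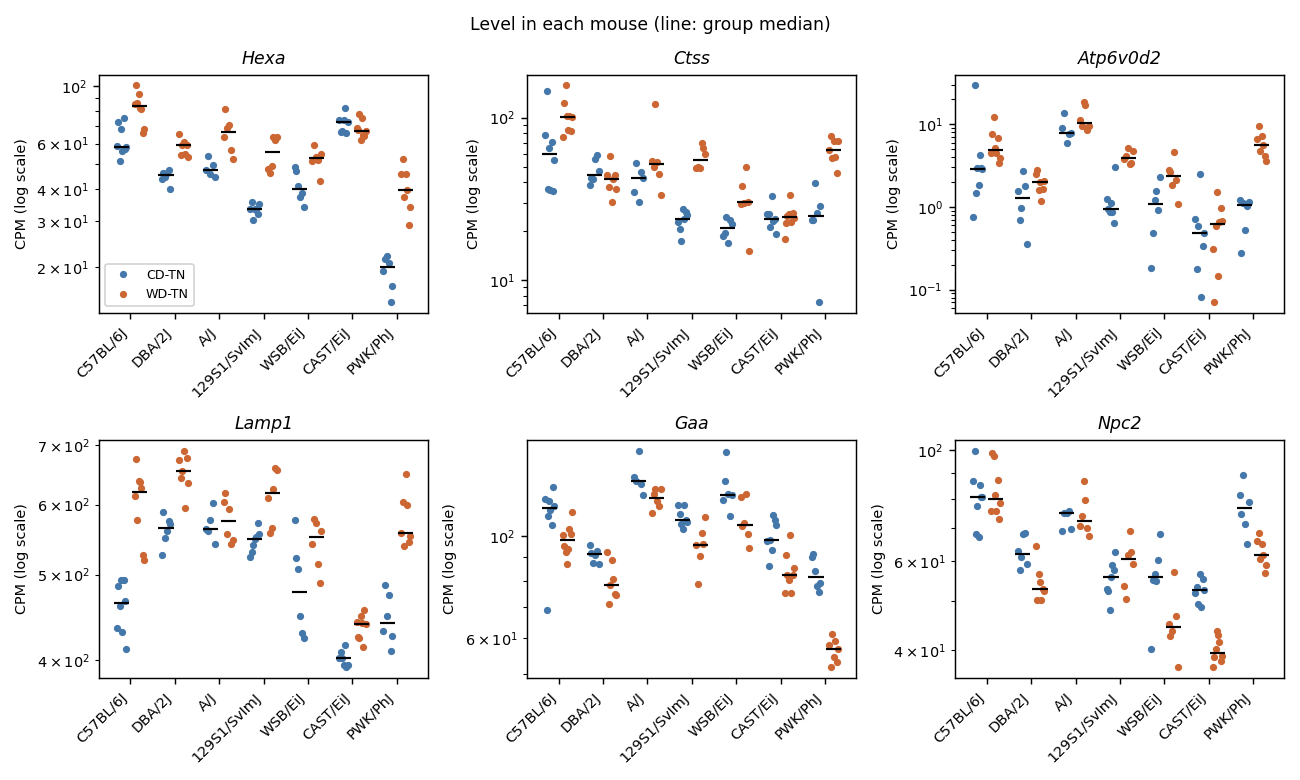
CPM (log axis) of 6 members in every mouse, by strain, on CD-TN (blue) and WD-TN (orange), with black lines at group medians. In PWK/PhJ the diets do not overlap for Hexa, Ctss, Atp6v0d2, Lamp1 and Gaa, and in C57BL/6J CD-TN a single mouse at 29.5 CPM lies far above the others for Atp6v0d2.

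The aspartic protease Ctsd was higher in C57BL/6J (0.37 ± 0.08), 129S1/SvImJ (0.36 ± 0.09) and DBA/2J (0.27 ± 0.09), and the cysteine protease Ctsb in C57BL/6J (0.29 ± 0.05), CAST/EiJ (0.26 ± 0.06) and 129S1/SvImJ (0.24 ± 0.06). Both are abundant liver cathepsins. Cathepsin H (Ctsh, ENSMUSG00000032359, chr9:90054152-90076089), an aminopeptidase, fell in PWK/PhJ. Its values were 223, 259 and 267 CPM on CD-TN (n = 6) and 164, 190.2 and 221 CPM on WD-TN (n = 7) in PWK/PhJ, without overlap, a log2 fold change of -0.43 ± 0.06. In 129S1/SvImJ it was -0.16 ± 0.06 and lower, a call lost with upper-quartile scaling, while in WSB/EiJ and CAST/EiJ the medians of the 2 diets were within 1 CPM of each other. Cathepsin Z (Ctsz, ENSMUSG00000016256, chr2:174427493-174439039), a carboxypeptidase, was called in opposite directions. It was at 136, 151 and 158 CPM on CD-TN (n = 8) and 176, 184 and 222 CPM on WD-TN (n = 8) in C57BL/6J, without overlap (0.34 ± 0.06). In PWK/PhJ the groups overlapped and the log2 fold change was -0.20 ± 0.07, and without CD-TN replicate 5 it was -0.18 ± 0.07 and not called, nor was it with upper-quartile scaling. Ctsz shares exon sequence with Nelfcd on the opposite strand, and whether the reads were counted by strand is not given in the sources used here. Of members whose overlaps are not given beside them, Ctsd (with Gm49369) and Ctsl (with Gm49230) share exon sequence on the same strand. On the opposite strand, Ctsb (Fdft1), Ctsa (Pltp and Neurl2), Ctsl (Gm47123), Atp6v0b (Gm12841), Atp6v1e1 (Slc25a18) and Atp6v1h (Rgs20) do. Ctsl was lower in CAST/EiJ (-0.35 ± 0.11), a call lost with cohort as a term (-0.31). In C57BL/6J it was -0.25 ± 0.11 and not called, and -0.32 ± 0.10 and called without WD-TN replicate 3. The protective protein Ctsa was called in no strain.

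Among the hydrolases Hexa (ENSMUSG00000025232, chr9:59539540-59565109), the alpha chain of the hexosaminidase that degrades GM2 ganglioside, was called higher in 6 of 7 strains, more than any other member. Its values were 14.7, 20.0 and 22.1 CPM on CD-TN (n = 6) and 29.0, 39.6 and 52.1 CPM on WD-TN (n = 7) in PWK/PhJ, without overlap, a log2 fold change of 1.07 ± 0.10. They were 30.4, 33.5 and 35.5 CPM on CD-TN (n = 7) and 46.0, 55.5 and 63.6 CPM on WD-TN (n = 6) in 129S1/SvImJ, without overlap (0.72 ± 0.10), and 40.2, 45.3 and 47.3 CPM on CD-TN (n = 6) and 53.3, 59.3 and 65.0 CPM on WD-TN (n = 7) in DBA/2J, without overlap (0.38 ± 0.10). In C57BL/6J it was 0.41 ± 0.09, in WSB/EiJ 0.35 ± 0.10 and in A/J 0.43 ± 0.11, and the groups overlapped in all 3. In CAST/EiJ Hexa was at 66.0, 72.9 and 82.0 CPM on CD-TN and 61.9, 67.3 and 77.8 CPM on WD-TN, and was not called (-0.07 ± 0.09). Hexa overlaps Tmem202 on the opposite strand. Prosaposin (Psap, ENSMUSG00000004207, chr10:60277627-60302597), the precursor of the saposins that present sphingolipids to hydrolases, was higher in 4 strains. It was at 489.8, 549 and 606 CPM on CD-TN (n = 6) and 634, 708 and 742 CPM on WD-TN (n = 7) in PWK/PhJ, without overlap (0.35 ± 0.07), with 0.46 ± 0.06 in C57BL/6J, 0.43 ± 0.07 in 129S1/SvImJ and 0.23 ± 0.08 in A/J. The A/J call was lost with cohort as a term (0.19) and without CD-TN replicate 1, 3, 4 or 5. The galactosidases moved in different strains. Gla (ENSMUSG00000031266, chrX:134588149-134601125), which cleaves alpha-galactosyl lipids, was at 3.91, 4.46 and 4.90 CPM on CD-TN (n = 6) and 5.14, 5.84 and 6.95 CPM on WD-TN (n = 7) in DBA/2J, without overlap (0.44 ± 0.11), and was also higher in WSB/EiJ (0.32 ± 0.10) and 129S1/SvImJ (0.30 ± 0.10). Glb1 (ENSMUSG00000045594, chr9:114401076-114474898), the beta-galactosidase, was at 9.10, 10.8 and 13.0 CPM on CD-TN (n = 7) and 13.6, 14.8 and 16.3 CPM on WD-TN (n = 8) in CAST/EiJ, without overlap (0.46 ± 0.08), and in WSB/EiJ the log2 fold change was 0.24 ± 0.08. Glb1 and Tmppe share exon sequence on the same strand. Lipa, the lysosomal acid lipase, was called in 129S1/SvImJ alone (0.27 ± 0.09), and the peptidase Tpp1 in no strain.

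Gaa and Npc2 went down where they were called. Acid alpha-glucosidase (Gaa, ENSMUSG00000025579, chr11:119267887-119285454), which degrades glycogen in the lysosome, had negative fold changes in all 7 strains and was called in 3. It was at 75.7, 81.6 and 91.3 CPM on CD-TN (n = 6) and 51.9, 56.9 and 61.1 CPM on WD-TN (n = 7) in PWK/PhJ, without overlap, a log2 fold change of -0.56 ± 0.08. In CAST/EiJ it was -0.25 ± 0.07 and in 129S1/SvImJ -0.21 ± 0.08, where the call was lost with upper-quartile scaling. In C57BL/6J the value was -0.15 ± 0.07 and not called, and -0.24 ± 0.06 and called without CD-TN replicate 2, which had the lowest level (69.3 CPM). Npc2 (ENSMUSG00000021242, chr12:84754562-84773152), which carries cholesterol out of the lysosome together with the membrane protein Npc1, was at 48.7, 52.7 and 56.5 CPM on CD-TN (n = 7) and 37.0, 39.5 and 43.5 CPM on WD-TN (n = 8) in CAST/EiJ, without overlap, a log2 fold change of -0.39 ± 0.08. It was also lower in WSB/EiJ (-0.29 ± 0.08) and PWK/PhJ (-0.29 ± 0.08), and in 129S1/SvImJ it was 0.10 ± 0.08 and not called.

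Lamp1 and Lamp2, the main glycoproteins of the lysosomal membrane, differed. Lamp1 (ENSMUSG00000031447, chr8:13159161-13175338, overlapping Grtp1 on the opposite strand) was higher in 5 strains. It was at 412, 464 and 494 CPM on CD-TN (n = 8) and 519.8, 619.8 and 676 CPM on WD-TN (n = 8) in C57BL/6J, a log2 fold change of 0.39 ± 0.05. It was at 410.1, 440.4 and 487 CPM on CD-TN (n = 6) and 539, 557 and 649.5 CPM on WD-TN (n = 7) in PWK/PhJ (0.37 ± 0.05). Neither pair of groups overlapped. The log2 fold change was 0.22 ± 0.05 in DBA/2J, 0.17 ± 0.06 in WSB/EiJ and 0.16 ± 0.05 in 129S1/SvImJ. The WSB/EiJ call was lost under 9 of 16 alternatives, namely edgeR, no filter on low counts, and the omission of any of the 5 A/J CD-TN mice, C57BL/6J CD-TN replicate 2 or C57BL/6J WD-TN replicate 3. Lamp2 (ENSMUSG00000016534, chrX:38401357-38456454) was called in no strain, with log2 fold changes from -0.17 ± 0.06 in A/J to 0.07 ± 0.06 in WSB/EiJ. In A/J all 6 WD-TN mice (529.5, 615 and 634 CPM) were nonetheless below the 5 CD-TN mice (647 to 700.0 CPM). Tfeb (ENSMUSG00000023990, chr17:47737030-47792419) was called in no strain either, with log2 fold changes between -0.15 ± 0.09 in 129S1/SvImJ and 0.11 ± 0.08 in C57BL/6J. Its levels were 6.28 to 15.7 CPM over all CD-TN mice and 7.71 to 14.0 CPM over all WD-TN mice.

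The diet effect differed between strains, by limma's F test over the 7 strains, for 19 of 35 members, beside 37.5% of all genes. The members that led this comparison were Hexa, Ctsz, Ctss, Ctsh and Atp6v0d1. Set against the mean of the other 6 strains, the log2 diet effect on Hexa was larger in PWK/PhJ by 0.70 ± 0.11 and differed in CAST/EiJ by -0.63 ± 0.10. For Ctss it differed by 1.00 ± 0.25 in PWK/PhJ, 0.78 ± 0.25 in 129S1/SvImJ, -0.73 ± 0.25 in CAST/EiJ and -0.95 ± 0.25 in DBA/2J. For Ctsz it differed by 0.40 ± 0.07 in C57BL/6J and -0.24 ± 0.07 in PWK/PhJ. Ctsh (-0.36 ± 0.06) and Gaa (-0.36 ± 0.08) stood apart in PWK/PhJ, and Atp6v0d1 in PWK/PhJ (-0.20 ± 0.06) and CAST/EiJ (-0.20 ± 0.05). All these differences were called. By strain, 13 members differed in this way in PWK/PhJ, beside 16.3% of all genes, 9 in CAST/EiJ (14.5%), 4 in C57BL/6J (4.69%), 2 in DBA/2J (7.77%), 2 in 129S1/SvImJ (6.28%), and 0 in WSB/EiJ (0.947%) and A/J (0.466%).

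On CD-TN alone, where no diet enters, all 35 members differed between strains by limma's F test, but so did 93.7% of all genes. Reads of every strain were mapped to the C57BL/6J genome. Between 8.93% and 14.8% of reads did not map in CAST/EiJ, against 1.66% to 3.87% in C57BL/6J. The part of mapping in the differences between strains was not tested. Strain and cohort, the batch that the labels give, were partly confounded. WSB/EiJ was in cohorts 6 and 7, which held no other strain, so its differences cannot be told apart from those of its cohorts, and C57BL/6J and PWK/PhJ were both in cohorts 1 and 2 only. In a fit over the other 6 strains with cohort as a shared term, all 35 members still differed, beside 87.9% of all genes (91.5% with no cohort term), and of 144 member and strain pairs called without it 130 were called in the same direction with it. The 5 with the smallest adjusted p were Atp6v0c (1.8e-42), Tpp1 (7.8e-34), Gla (2.2e-31), Hexa (1e-30) and Glb1 (3e-27). Hexa was lowest in PWK/PhJ, at 19.2 ± 2.88 CPM (SD, n = 6), and highest in CAST/EiJ, at 71.7 ± 5.75 CPM (SD, n = 7). The strain with the largest increase on WD-TN thus had the lowest CD-TN level and the strain without a call the highest. The CD-TN level also enters the diet effect, so the 2 are not separate measures. Between these strains the order did not hold, with 0.41 in C57BL/6J (62.2 CPM) and 0.35 in WSB/EiJ (41.2 CPM). Against the mean of the other 6 strains the log2 difference of Hexa on CD-TN was -1.35 ± 0.08, adjusted p = 3.6e-26, in PWK/PhJ and 0.88 ± 0.07, adjusted p = 4e-19, in CAST/EiJ (limma). Gla was at 15.0 ± 0.995 CPM in PWK/PhJ (n = 6) and between 4.42 ± 0.385 and 6.69 ± 0.841 CPM in the other 6 strains, and PWK/PhJ differed from them by 1.44 ± 0.06, adjusted p = 3.8e-36 (limma). Tpp1, the peptidase lost in a childhood neuronal storage disease, was lowest in CAST/EiJ at 81.0 ± 6.04 CPM (n = 7), against 113 ± 2.37 CPM in PWK/PhJ (n = 6) and 149 ± 5.85 CPM in WSB/EiJ (n = 6). The CAST/EiJ difference was -0.73 ± 0.03, adjusted p = 1.2e-34 (limma). Glb1 was low in DBA/2J (6.74 ± 1.20 CPM, n = 6) and 129S1/SvImJ (7.70 ± 0.434 CPM, n = 7), and the other 5 strains were at 10.9 ± 1.37 to 16.1 ± 0.94 CPM. The low strains differed from the rest by -0.87 ± 0.07, adjusted p = 1.3e-17, and -0.62 ± 0.07, adjusted p = 2.1e-13 (limma). With cohort as a shared term, without WSB/EiJ and against the other 5 strains, these differences were -1.49 ± 0.09 and 0.90 ± 0.08 for Hexa in PWK/PhJ and CAST/EiJ, 1.51 ± 0.08 for Gla in PWK/PhJ, -0.72 ± 0.04 for Tpp1 in CAST/EiJ, and -0.78 ± 0.09 and -0.56 ± 0.08 for Glb1 in DBA/2J and 129S1/SvImJ, and all were called.

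Atp6v0c (ENSMUSG00000024121, chr17:24163866-24169702), a proteolipid of the proton-carrying ring, split the strains into those at 19.9 ± 1.80 CPM (C57BL/6J, n = 8), 22.5 ± 2.22 CPM (CAST/EiJ, n = 7) and 20.3 ± 2.33 CPM (PWK/PhJ, n = 6) and the other 4, at 8.47 ± 0.432 to 10.1 ± 0.968 CPM. A look at its pseudogenes, added after these values were seen, gave the reverse pattern for Atp6v0c-ps2. Its CD-TN mean was 0.832 CPM in C57BL/6J, 0.789 in PWK/PhJ and 5.35 in CAST/EiJ, and 20.2 to 24.5 CPM in the other 4. The sum of both was 20.7 ± 1.88 CPM in C57BL/6J and 34.6 ± 2.65 CPM in WSB/EiJ (SD), the opposite order of these strains to that of Atp6v0c alone. The strain difference in Atp6v0c is therefore uncertain as a measure of the gene. Reads that map to several places were not counted.

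**Figure D5:**
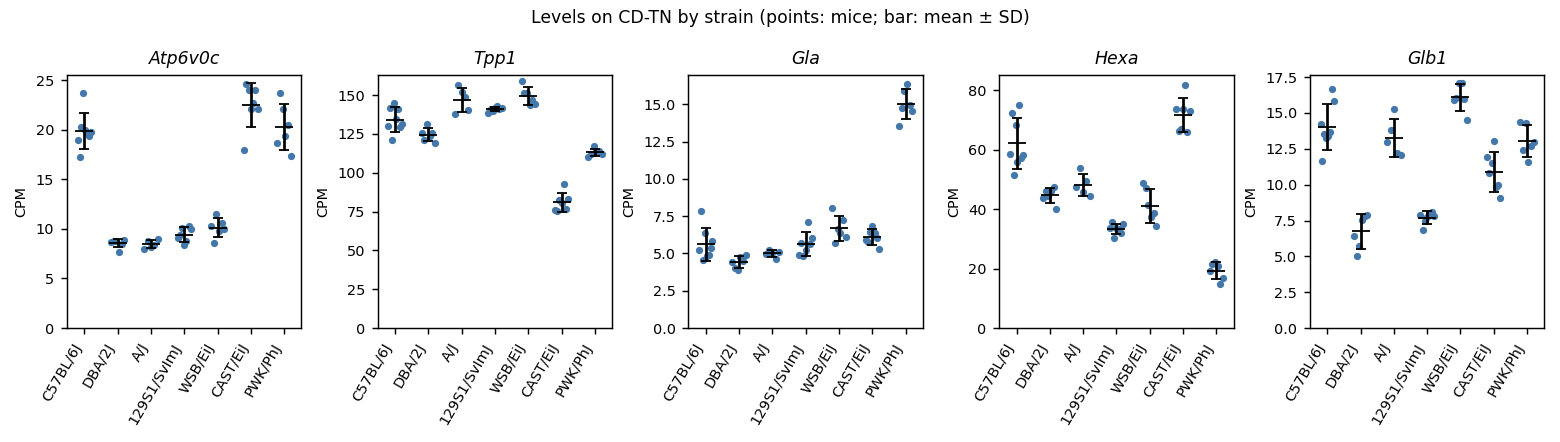
CPM on CD-TN of the 5 members that differed most between strains, 1 point per mouse, with mean ± SD in black and the vertical axis from 0. Atp6v0c falls into 2 bands of strains, Gla is high in PWK/PhJ, Tpp1 is low in CAST/EiJ, Hexa is low in PWK/PhJ and Glb1 is low in DBA/2J and 129S1/SvImJ.

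By strain on CD-TN, against the mean of the other 6 strains, members were called higher and lower as follows. In PWK/PhJ 14 were higher and 12 lower, beside 30.2% and 28.4% of all genes. In CAST/EiJ 14 were higher and 13 lower, beside 32.4% and 31.5% of all genes. In 129S1/SvImJ 8 were higher and 18 lower, beside 23.6% and 20.6% of all genes. In C57BL/6J 15 were higher and 11 lower, beside 29.5% and 28.4% of all genes. In WSB/EiJ 14 were higher and 6 lower, beside 25.4% and 23.8% of all genes. In A/J 12 were higher and 9 lower, beside 20.5% and 16.2% of all genes. In DBA/2J 5 were higher and 14 lower, beside 22.9% and 19.4% of all genes. As shares of 35, these counts were above their backgrounds except those higher in 129S1/SvImJ and DBA/2J and those lower in WSB/EiJ. Some were near the background, such as the 11 lower in C57BL/6J beside 28.4% of all genes. The background also holds genes with few reads. At least 10 counts in every mouse were found for 33 members and 12181 genes, against 35 and 19110 tested. No test of the list was made. Tfeb was lower in PWK/PhJ (-0.48 ± 0.08, adjusted p = 7e-08) and in C57BL/6J (-0.33 ± 0.06, adjusted p = 7.7e-06) by limma. Ctss was higher in C57BL/6J (1.05 ± 0.16, adjusted p = 2.9e-08, limma), and without replicate 2 the difference was 0.87, adjusted p = 2.2e-06. Per length of exon, on CD-TN in C57BL/6J, Psap (189 CPM per kb), Lamp1 (172), Ctsb (112) and Ctsz (103) were the most abundant members, and Ctsk (0.683), Tfeb (1.61), Gla (1.72) and Atp6v0d2 (2.15) the least. Without replicate 2 the lowest were Ctsk at 0.385, Atp6v0d2 at 0.902, Gla at 1.62 and Tfeb at 1.68 CPM per kb.

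Other lysosomal genes, from 5 lists kept apart from the 35, gave a wider view. Their counts, and those of the marker lists, stand beside the shares of all genes called higher and lower, which were 14.3% and 11.9% for C57BL/6J, 14.5% and 13.6% for 129S1/SvImJ, 4.39% and 4.64% for A/J, 4.97% and 3.97% for WSB/EiJ, 10.2% and 7.77% for DBA/2J, 15.1% and 14.5% for PWK/PhJ, and 9.77% and 9.73% for CAST/EiJ. Of 32 further hydrolases and activators 16 were called higher and 2 lower in C57BL/6J, 9 and 2 in 129S1/SvImJ, 9 and 1 in WSB/EiJ, 7 and 2 in A/J, 8 and 3 in DBA/2J, 6 and 5 in PWK/PhJ and 5 and 3 in CAST/EiJ. Pla2g15, a lysosomal phospholipase, was higher in all 7, from 0.44 ± 0.13 in 129S1/SvImJ to 0.89 ± 0.13 in CAST/EiJ. Gnptab, the phosphotransferase that makes the mannose 6-phosphate sorting tag, was also higher in all 7, from 0.23 ± 0.08 in CAST/EiJ to 0.42 ± 0.09 in DBA/2J. Arsb, a sulfatase of dermatan sulfate, was higher in 6. Of 11 further peptidases 5 were higher and 1 lower in C57BL/6J, 4 and 2 in WSB/EiJ, 4 and 1 in 129S1/SvImJ, 4 and 1 in DBA/2J, 3 and 2 in PWK/PhJ, 1 and 0 in A/J and 0 and 1 in CAST/EiJ. Scpep1, a serine carboxypeptidase, was lower in 6 strains and fell furthest in CAST/EiJ (-1.47 ± 0.10), and Ppt1, a thioesterase, was higher in 6. Ctse, an endosomal aspartic protease, was higher in 4 (2.13 ± 0.38 in C57BL/6J).

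Of 19 further membrane proteins that were tested, 7 were called higher and 2 lower in C57BL/6J, 5 and 4 in 129S1/SvImJ, 5 and 3 in PWK/PhJ, 5 and 0 in A/J, 3 and 1 in DBA/2J, 2 and 3 in CAST/EiJ and 2 and 0 in WSB/EiJ. Tmem192 was higher in 5 strains and lower in PWK/PhJ (-0.17 ± 0.07). The tetraspanin Cd63 was higher in 4, with 2.21 ± 0.30 in PWK/PhJ and 1.82 ± 0.45 in 129S1/SvImJ, and Laptm4b in 4. Of 6 tested further V-ATPase subunits 2 were higher and 0 lower in C57BL/6J, 3 and 1 in CAST/EiJ, 1 and 1 in DBA/2J and PWK/PhJ, 1 and 0 in 129S1/SvImJ and WSB/EiJ and 0 in A/J. Atp6v0e2, a paralog of Atp6v0e, was higher in CAST/EiJ (0.76 ± 0.13), 129S1/SvImJ (0.69 ± 0.24) and DBA/2J (0.57 ± 0.14). Atp6v1g2 was called both ways, and Atp6v0a2 was higher in C57BL/6J and PWK/PhJ. Of 18 MiT/TFE factors and nutrient sensors 4 were higher and 1 lower in C57BL/6J, 4 and 0 in PWK/PhJ, 3 and 1 in DBA/2J, 1 and 3 in 129S1/SvImJ, 2 and 0 in A/J, 1 and 4 in CAST/EiJ and 0 in WSB/EiJ. The Rag GTPase Rragd was higher in PWK/PhJ (2.44 ± 0.28), A/J (1.67 ± 0.30) and C57BL/6J (0.69 ± 0.22), while Rraga was lower in 3 strains and Tfec was called both ways.

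Other cell type markers moved beside the members too. Of 10 hepatocyte markers 5 were called lower on WD-TN in C57BL/6J, A/J, 129S1/SvImJ and PWK/PhJ, 4 in WSB/EiJ and 2 in DBA/2J and CAST/EiJ, while DBA/2J and C57BL/6J each had 1 called higher. Their summed level was 118629 to 143806 CPM on CD-TN and 74149 to 104556 CPM on WD-TN in PWK/PhJ, where 9 members were lower, and 113762 to 138343 and 77534 to 101736 CPM in CAST/EiJ, where 7 were. It was also lower on WD-TN without overlap in WSB/EiJ (152125 to 189403 and 74647 to 120434 CPM) and C57BL/6J (111166 to 135703 and 75543 to 99714 CPM), with 1 lower member each, and in A/J (188961 to 221815 and 139831 to 164167 CPM), with 0. In 129S1/SvImJ, with 4 lower members, it was 108996 to 140191 and 89759 to 112302 CPM, and in DBA/2J, with 0, 116769 to 139196 and 99634 to 132510.0 CPM, with overlap in both. These sums are mostly Alb, whose CD-TN median in CAST/EiJ was 93958 CPM beside 132948 CPM for the sum. In CAST/EiJ the 2 hepatocyte markers called lower were Alb and Tat. Of 8 stellate cell markers 4 were higher in PWK/PhJ, 3 in C57BL/6J and 129S1/SvImJ, 2 in A/J and 0 elsewhere. Of 6 cholangiocyte markers 5 were higher in PWK/PhJ, 1 in C57BL/6J, 129S1/SvImJ and CAST/EiJ, and 1 was lower in DBA/2J. The 1 in C57BL/6J, 129S1/SvImJ and CAST/EiJ was Spp1, which is also in the list of lipid-associated macrophage markers. Of 7 endothelial markers 2 were higher and 3 lower in C57BL/6J, 2 and 1 in 129S1/SvImJ, 1 and 1 in PWK/PhJ, 0 and 3 in DBA/2J and 0 and 1 in WSB/EiJ. Their part in the falls of Gaa, Ctsh, Npc2 and the V0 subunits was not tested.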

How the data were processed

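Liver RNA from 93 mice in 14 groups was sequenced, and the authors deposited 1 table of raw read counts per gene, made with STAR 2.7.1a against GRCm38/mm10. The annotation release and the strand setting are not given in the sources used here. Lines of unmapped, multimapping, ambiguous and unassigned reads were kept out of library sizes. Of 53465 gene IDs, 53274 were paired with symbols through GENCODE M21.

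Counts were filtered (filterByExpr, minimum count 10), scaled by TMM (edgeR 4.0.16) and fitted with voom in limma 3.58.1 (R 4.3.3) over all 14 groups, with no covariate. Contrasts were WD-TN minus CD-TN within each strain, each strain against the mean of the other 6 on CD-TN, and F tests over strains. Adjustment was Benjamini-Hochberg over all genes within a contrast, with a threshold of 0.05. Errors of log2 fold changes are standard errors. The fits were checked on simulated data.

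The members and the lists were chosen with earlier results of these data known. Described in full were, in each of 6 functional groups, the 2 members with the largest mean diet effect, the largest increase and decrease called in each strain, and the 5 leading each F test. Of each other lysosomal list, the 3 genes called in most strains were named. Alternatives were edgeR's quasi-likelihood test, DESeq2 1.42.0, upper-quartile scaling, 2 other filters, cohort or RNA integrity as a term, sample weights, and leaving out mice. Leaving out mice of C57BL/6J and PWK/PhJ was chosen after seeing the data, as was a fit of strain differences on CD-TN with cohort shared over 6 strains.

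Mice are separate animals. Counts of 40020424 to 49894856 reads per mouse limit precision only for the rarest members. Windows around gene starts came from RefSeq.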

Additional observations from a re-analysis of the deposited data

Results flagged for a closer look

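In the 21 members described in full, the most extreme mouse of each group was compared with the rest of its group by Dixon's test. Of 294 groups, 20 (6.80%) had an outlying mouse. The 294 are 21 members in the same 14 groups of mice and are not independent. The share therefore cannot be set against the 1 in 20 that chance gives in independent groups. 6 of these were in C57BL/6J on CD-TN. There replicate 2, the mouse that stood apart, was highest at 29.5 CPM for Atp6v0d2 (next 4.25) and 145 CPM for Ctss (next 78.2). It was also highest at 4.18 CPM for Ctsk (next 0.828) and 661 CPM for Psap (next 547), and lowest at 69.3 CPM for Gaa (next 106). For Atp6v0c another mouse, replicate 4, was highest at 23.7 CPM (next 20.2).

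Other outlying mice on CD-TN were the highest for Atp6v0d2 in 129S1/SvImJ (3.03 CPM) and CAST/EiJ (2.48 CPM), for Atp6v0e in A/J (27.6 CPM) and CAST/EiJ (59.7 CPM), and for Tfeb (15.6 CPM) and Atp6v1g1 (32.3 CPM) in A/J. The lowest were Atp6v0e in 129S1/SvImJ (23.4 CPM) and Atp6v0c in DBA/2J (7.71 CPM) and CAST/EiJ (18.0 CPM). On WD-TN they were the highest for Atp6v1a (68.3 CPM) and Lamp2 (581 CPM) in PWK/PhJ and for Ctss in A/J (122 CPM), and the lowest for Lamp2 in A/J (530 CPM) and Ctsz in WSB/EiJ (244 CPM).

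The diet effect differed between strains by limma's F test for 14 of the members described in full. The distance from the lowest to the highest log2 fold change over the 7 strains was 2.83 for Atp6v0d2, 1.67 for Ctss, 1.13 for Hexa, 0.547 for Ctsz, 0.49 for Gla, 0.488 for Npc2 and 0.429 for Ctsh. It was 0.42 for Psap, 0.406 for Gaa, 0.366 for Lamp1, 0.362 for Glb1, 0.337 for Atp6v0e, 0.316 for Atp6v1g1 and 0.305 for Atp6v0d1.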

How the results depend on the processing

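Of 70 calls of a member in a strain, 54 to 69 were kept under each of 16 alternatives and 0 turned direction. All 35 members differed between strains on CD-TN in every alternative that tested them, a fit over 6 strains with cohort as a shared term included, and the count with differing diet effects stayed within 1.5 times. Counts of called members moved more in some strains, and the cause was not tested. Under edgeR, 2 were lower in C57BL/6J. Under DESeq2, 8 were higher in WSB/EiJ and 2 lower in 129S1/SvImJ. Under upper-quartile scaling, 4 were higher in CAST/EiJ and 0 lower in 129S1/SvImJ. Without a filter, which raised the genes tested to 41553, 2 were higher in A/J and 0 in WSB/EiJ, and 0 were lower in C57BL/6J, 1 in 129S1/SvImJ and 0 in WSB/EiJ. With at least 10 counts in every mouse, 33 members were tested and 0 were lower in C57BL/6J and 129S1/SvImJ. With cohort as a term, 2 were lower in C57BL/6J, 1 in DBA/2J, 2 in 129S1/SvImJ and 2 in WSB/EiJ. With RNA integrity as a term, 0 were lower in C57BL/6J. With sample weights, 11 were higher in A/J and 8 in WSB/EiJ, and 3 were lower in WSB/EiJ, 2 in DBA/2J and 2 in A/J. The share of all genes called higher moved too, from 4.39% in A/J and 4.97% in WSB/EiJ to 9.96% and 7.64% with sample weights and to 1.67% and 1.79% without a filter. With at least 10 counts in every mouse this share rose from 9.77% to 14.2% in CAST/EiJ and from 14.3% to 17.3% in C57BL/6J. Leaving out each A/J CD-TN mouse in turn gave 1 to 4 higher in A/J and 0 lower in C57BL/6J. Without C57BL/6J CD-TN replicate 2, 5 were higher in A/J, and 3 were lower in WSB/EiJ, 2 in DBA/2J and 1 in A/J. Without C57BL/6J WD-TN replicate 3, 2 were lower in C57BL/6J. No paired analysis was possible because the labels give no replicate numbers. Depth limits Atp6v0d2 and Ctsk, with as few as 3 and 9 reads in a mouse.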
